A study of Mus musculus with 4 samples.

Results

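The insulin-like growth factor (IGF), Akt, mTOR and FoxO pathway was examined in tibialis anterior (TA) muscle from young and old mice through 9 genes chosen by symbol: Igf1, Igf1r, Irs1, Akt1, Akt2, Mtor, Rps6kb1, Foxo1 and Foxo3. Each had 1 row in every sample, so all 9 were measured, among 20340 gene labels with a value in all samples. The TA, a limb muscle made mostly of fast fibers, came from wild type C57BL/6 mice aged 3 months (Young) or 20 months (Old), without any further allele or treatment, and mRNA-seq was done on 2 samples per age (Old 1, Old 2, Young 1 and Young 2). The series design mentions triplicates, and a figure legend of the study speaks of 2 independent experiments per sample. Here 2 samples per age were analysed. The labels do not say whether the 2 samples of an age came from separate mice, so p-values measure the spread between these samples, which may be technical.

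IGF-1 binds the IGF-1 receptor on the muscle fiber, and the receptor passes the signal through insulin receptor substrates to PI3K and the kinase Akt. Akt then acts in opposite ways on both ends of protein turnover. It activates mTORC1, which drives protein synthesis through the S6 kinase, and it phosphorylates FoxO transcription factors so that they leave the nucleus and stop activating atrophy genes such as Fbxo32 and Trim63. Much of this control is by phosphorylation, which mRNA levels do not measure. The question here was how the mRNA of the pathway's components differed between young and old TA muscle.

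Of the 9 genes, Foxo1 alone passed the test, and it was lower in old muscle by 2.77-fold. Over all genes tested, 13.5% passed in either direction. The Foxo1 call was lost under 5 of 13 alternative settings. The next largest difference, in Irs1, was a 1.41-fold lower mean level that just missed the threshold. For Akt1, Akt2, Foxo3, Igf1r and Mtor the old samples also lay below the young ones, with mean levels lower by 1.09-fold to 1.29-fold. None of these passed the test. Both old samples lay below both young samples for 28.4% of all genes tested, and above them for 27.8%. For Igf1 and Rps6kb1 the values of the ages overlapped. In the young samples Foxo1 mRNA was above Foxo3 mRNA, and in the old samples it was below.

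A total of 4 promoter windows are shown here because Foxo1 and Irs1 had the largest differences, Foxo3 is the close relative that differed less, and an Akt1 window was the single one among the 9 genes with a match to the FoxO element. Each is the 250 bases before an annotated RefSeq start (GRCm38.p6, the same assembly as mm10), 5′ to 3′ on the gene's strand. Capitals mark the GC box GGGCGG, the E-box CACGTG and the FoxO element GTAAACA, on either strand. The Foxo1 window is chr3:52268087-52268336 on the plus strand, the Foxo3 window chr10:42276696-42276945 on the minus strand, the Irs1 window chr1:82291440-82291689 on the minus strand, and the Akt1 window chr12:112674885-112675134 on the minus strand.
Foxo1: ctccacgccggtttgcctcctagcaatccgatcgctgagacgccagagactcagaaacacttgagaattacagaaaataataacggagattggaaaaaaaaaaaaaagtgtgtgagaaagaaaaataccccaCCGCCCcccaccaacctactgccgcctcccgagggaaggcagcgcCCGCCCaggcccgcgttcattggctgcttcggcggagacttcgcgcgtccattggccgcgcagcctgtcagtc
Foxo3: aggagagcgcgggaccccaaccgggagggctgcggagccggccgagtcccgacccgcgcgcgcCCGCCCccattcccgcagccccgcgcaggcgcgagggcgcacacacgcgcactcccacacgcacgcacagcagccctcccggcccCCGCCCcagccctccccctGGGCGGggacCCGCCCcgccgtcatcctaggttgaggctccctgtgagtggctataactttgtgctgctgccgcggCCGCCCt
Irs1: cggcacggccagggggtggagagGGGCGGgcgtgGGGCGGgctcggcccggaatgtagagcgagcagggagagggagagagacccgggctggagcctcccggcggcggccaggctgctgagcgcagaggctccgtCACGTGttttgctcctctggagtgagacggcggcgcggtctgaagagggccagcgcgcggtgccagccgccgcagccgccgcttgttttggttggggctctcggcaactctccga
Akt1: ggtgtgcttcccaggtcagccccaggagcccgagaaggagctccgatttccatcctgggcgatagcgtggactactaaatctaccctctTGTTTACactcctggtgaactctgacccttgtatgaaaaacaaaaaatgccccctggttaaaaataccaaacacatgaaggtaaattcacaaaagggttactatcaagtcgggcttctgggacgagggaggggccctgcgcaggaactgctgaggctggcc

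The 9 genes had 13 such windows. The Foxo1 and Foxo3 windows differed in composition, with 56.0% G and C in Foxo1 and 76.4% in Foxo3, against a median of 52.4% over 32851 windows of all genes. The Foxo1 window held 2 GC boxes and the Foxo3 window 5. A GC box was found in 7 of the 13 windows and in 32.7% of all windows. The FoxO element was found in 1 of 13, against 3.17% of all windows. Its last letters, AAACA, were found in 7 of 13, against 46.4%. Akt1 has 2 windows, and the one next to its measured locus (chr12:112674277-112674526, minus strand) had no match to the FoxO element. The E-box was found in 1 of 13, the Irs1 window, against 6.02%. These matches describe letters in a window and are not binding sites.

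Levels were deposited as FPKM (fragments relative to transcript length and to all mapped fragments), which is per length, so that different genes can be set side by side. The files hold FPKM alone, and sequencing depth is unknown. Summed FPKM ranged from 226747 to 739302, and Old 1 and Young 2 stood above the other sample of their age at most genes. Each sample was therefore divided by its median ratio to the geometric mean of the 4 samples, taken over 7228 genes (factors 1.46 for Old 1, 0.680 for Old 2, 0.689 for Young 1 and 1.47 for Young 2). The factor was larger for genes of low level: on the log2 scale, Old 1 exceeded Old 2 by a median of 1.48 for genes at 1 to 3 FPKM and of 0.989 for genes at 10 to 30 FPKM. A single factor per sample thus left a remainder at low levels and took off too much at 10 to 30 FPKM. In the latter genes the 2 samples of an age were very alike apart from this shift. Their log2 ratios had a robust SD of 0.0664 (old) and 0.0685 (young), while those of old to young means had one of 0.394. At 3 to 10 FPKM, where Foxo1, Foxo3, Mtor and Rps6kb1 lie on average, the robust SD was 0.177 within either age and 0.442 between ages, and at 1 to 3 FPKM, the range of Igf1r, it was 0.397 (old), 0.396 (young) and 0.529 (ages). The muscle fiber genes Mylpf, Actn3 and Mb had between 760 and 22820 FPKM, while the fiber genes Ckm and Myh4 were listed at 0 in every sample and Tnnt3 at 0 in Old 1 and Old 2.

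log2(scaled FPKM + 1) was compared between ages with limma over the 10266 genes that reached 1 FPKM in 2 or more samples, all 9 genes among them. Of all genes tested, 815 (7.94%) were lower and 576 (5.61%) were higher in old muscle at an adjusted p under 0.05. With FPKM as deposited, without scaling, the numbers were 13 and 18, so the higher share of the calls moved from 41.4% to 58.1%. Of the 9 genes, 1 was called lower and 0 higher by limma, and at an unadjusted p under 0.05 there were 4 lower and 0 higher, while 3478 of all genes tested (33.9%) had such a p. Both old samples lay below both young samples for 7 of the 9 after scaling, against 28.4% of all genes tested, and above them for 0 of 9, against 27.8%. The median log2 fold change of the 9 genes was -0.26, and that of all genes tested was -0.005. With 2 samples against 2, an exact permutation test of a single gene gives no two-sided p under 0.333.

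**Figure D1:**
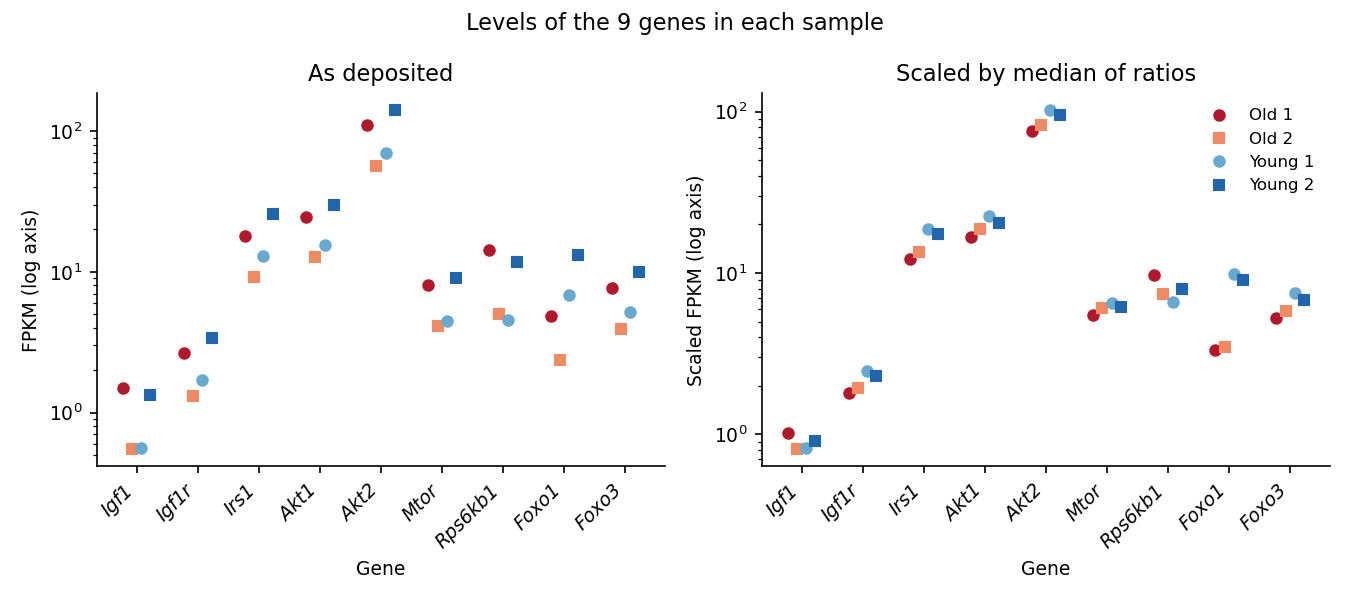
FPKM of the 9 genes in each of the 4 samples, as deposited (left) and after scaling by the median of ratios (right), on log axes, with 1 point per sample. As deposited, Old 1 and Young 2 stand above the other sample of their age, and after scaling the clearest gap between ages is in Foxo1 (3.34 and 3.47 in old against 9.92 and 9.0 in young muscle).

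Igf1, the ligand, lies on chromosome 10 from 87859056 to 87937047 (mm10 locus, plus strand). It had the lowest level of the 9 genes in every sample, with 1.49 and 0.550 FPKM in Old 1 and Old 2, and 0.563 and 1.33 in Young 1 and Young 2. After scaling these were 1.02, 0.809, 0.817 and 0.907, and the values of the ages overlapped. The log2 fold change was 0.04 (SE 0.20, 95% interval -0.56 to 0.64, adjusted p = 0.98 from limma), an interval that leaves room for a difference of either sign at this low level.
Igf1r, the receptor tyrosine kinase for IGF-1, lies on chromosome 7 from 67952257 to 68233809 (plus strand). Its FPKM was 2.64 and 1.31 in Old 1 and Old 2, and 1.71 and 3.36 in Young 1 and Young 2, and 1.81, 1.93, 2.48 and 2.29 after scaling. Both old samples were below both young samples, with a log2 fold change of -0.24 (SE 0.09, 95% interval -0.50 to 0.02, adjusted p = 0.17 from limma). It passed when every sample had to reach 1 FPKM (adjusted p = 0.0478 from limma).
Irs1, the adaptor that links the receptor to PI3K, lies on chromosome 1 from 82233105 to 82291439 (minus strand). It had 17.9 and 9.23 FPKM in Old 1 and Old 2, and 12.98 and 25.8 in Young 1 and Young 2. After scaling these became 12.3, 13.6, 18.9 and 17.5, so that the old samples sat 22.5% to 34.9% below the young samples over the 4 possible pairs. The log2 fold change was -0.46 (SE 0.08, 95% interval -0.70 to -0.22, adjusted p = 0.052 from limma). The adjusted p from limma was 0.0472 with a pseudocount of 0.1 and 0.0242 when every sample had to reach 1 FPKM. It was 0.0492 with the highest row per symbol, and 1.00 with FPKM as deposited. The filter and the row choice left the values of Irs1 itself unchanged.

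Akt1 and Akt2 encode the kinase between PI3K and both mTORC1 and FoxO. Akt2, the isoform best known for insulin action, lies on chromosome 7 from 27591560 to 27640811 (plus strand) and was the most abundant of the 9 genes in every sample, with 111 and 56.1 FPKM in Old 1 and Old 2, and 70.1 and 140.1 in Young 1 and Young 2. After scaling the values were 76.1, 82.5, 101.9 and 95.3, and the log2 fold change was -0.31 (SE 0.08, 95% interval -0.55 to -0.07, adjusted p = 0.091 from limma). Akt1, on chromosome 12 from 112653821 to 112674276 (minus strand), had 24.6, 12.8, 15.6 and 29.8 FPKM in Old 1, Old 2, Young 1 and Young 2. Scaled, it was 16.8 and 18.8 in old against 22.6 and 20.3 in young muscle, a log2 fold change of -0.26 (SE 0.10, 95% interval -0.54 to 0.03, adjusted p = 0.18 from limma). Within a sample, where a factor common to all genes cancels, the ratio of Akt2 to Akt1 FPKM was 4.53 and 4.39 in Old 1 and Old 2, and 4.50 and 4.70 in Young 1 and Young 2. These ratios overlapped between the ages.

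Mtor, the kinase at the core of both mTOR complexes, lies on chromosome 4 from 148448582 to 148557685 (plus strand). Its values were 8.08 and 4.15 FPKM in Old 1 and Old 2, and 4.46 and 9.04 in Young 1 and Young 2, and after scaling 5.53, 6.11, 6.48 and 6.15. The old and young values nearly touched, at 6.11 and 6.15, and the log2 fold change was -0.10 (SE 0.07, 95% interval -0.31 to 0.11, adjusted p = 0.43 from limma). Angptl7, annotated inside Mtor, has the same locus entry in the files and was at 3.08, 0, 0.492 and 7.18 FPKM in the same order.
Rps6kb1, which encodes the S6 kinase that mTORC1 activates, has a locus entry on chromosome 11 from 86415844 to 86544807 (minus strand). It had 14.2 and 5.02 FPKM in Old 1 and Old 2, and 4.57 and 11.7 in Young 1 and Young 2, and 9.74, 7.38, 6.63 and 7.93 after scaling. It was the least settled of the genes other than Igf1: the scaled values overlapped between the ages, and the old samples alone differed by 0.40 on the log2 scale. The log2 fold change was 0.20 (SE 0.17, 95% interval -0.30 to 0.70, adjusted p = 0.53 from limma). Rnft1, on the opposite strand with an annotated end that overlaps Rps6kb1, shares that locus entry and had 16.8, 5.42, 5.43 and 14.7 FPKM in the same order. Reads of overlapping genes can be split between them unless strand is used. The study's methods name a stranded mRNA library kit, but the strand setting of the counting is not given in the sources used here.

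Foxo1, a forkhead factor that drives atrophy and fasting genes when Akt is inactive, lies on chromosome 3 from 52268337 to 52350109 (plus strand). Its FPKM was 4.89 and 2.36 in Old 1 and Old 2, and 6.83 and 13.2 in Young 1 and Young 2. After scaling it was 3.34 and 3.47 in the old against 9.92 and 9.0 in the young samples. Every old sample was 61.4% to 66.3% below a young sample, while the old samples differed from each other by 0.05 and the young samples by 0.14 on the log2 scale. The log2 fold change was -1.24 (SE 0.07, 95% interval -1.45 to -1.04, adjusted p = 0.021 from limma), and 123 of the 10266 tested genes (1.20%) had a lower one. The call was lost under 5 of 13 alternatives. Among them were FPKM as deposited (adjusted p = 1.00 from limma), quantile normalization (0.0581), and leaving out Old 2 or Young 1. The log2 fold change stayed between -1.44 and -1.18 under all 13, but the filter, variance trend and block settings cannot change it.
Foxo3, the factor best known for activating Fbxo32, lies on chromosome 10 from 42181850 to 42276742 (minus strand). It had 7.70 and 3.96 FPKM in Old 1 and Old 2, and 5.16 and 9.96 in Young 1 and Young 2. After scaling the values were 5.26, 5.82, 7.49 and 6.77, lower in both old samples, with a log2 fold change of -0.31 (SE 0.08, 95% interval -0.56 to -0.07, adjusted p = 0.094 from limma).
The order of the FoxO pair differed between the ages. The ratio of Foxo1 to Foxo3 FPKM was 0.635 in Old 1 and 0.596 in Old 2, against 1.32 in Young 1 and 1.33 in Young 2. The log2 ratio was lower by 1.11 in old muscle, while it differed by 0.091 between the old samples and by 0.004 between the young samples. This ratio is free of any factor that applies to a whole sample, and its exact permutation p was 0.333 (two-sided), the smallest that 2 samples against 2 allow.
Of the other 3 ratios computed besides Akt2 to Akt1, that of Irs1 to Igf1r was 6.78 and 7.02 in the old and 7.60 and 7.66 in the young samples, without overlap (exact permutation p = 0.333). The ratio of Igf1r to Igf1 was 1.78 and 2.39 in old against 3.03 and 2.52 in young muscle, also without overlap (exact permutation p = 0.333), although the old samples differed from each other by 0.429 on the log2 scale and the age means by 0.43. The ratio of Mtor to Rps6kb1 was 0.568 and 0.827 in old against 0.977 and 0.775 in young muscle and overlapped (exact permutation p = 0.667).

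**Figure D2:**
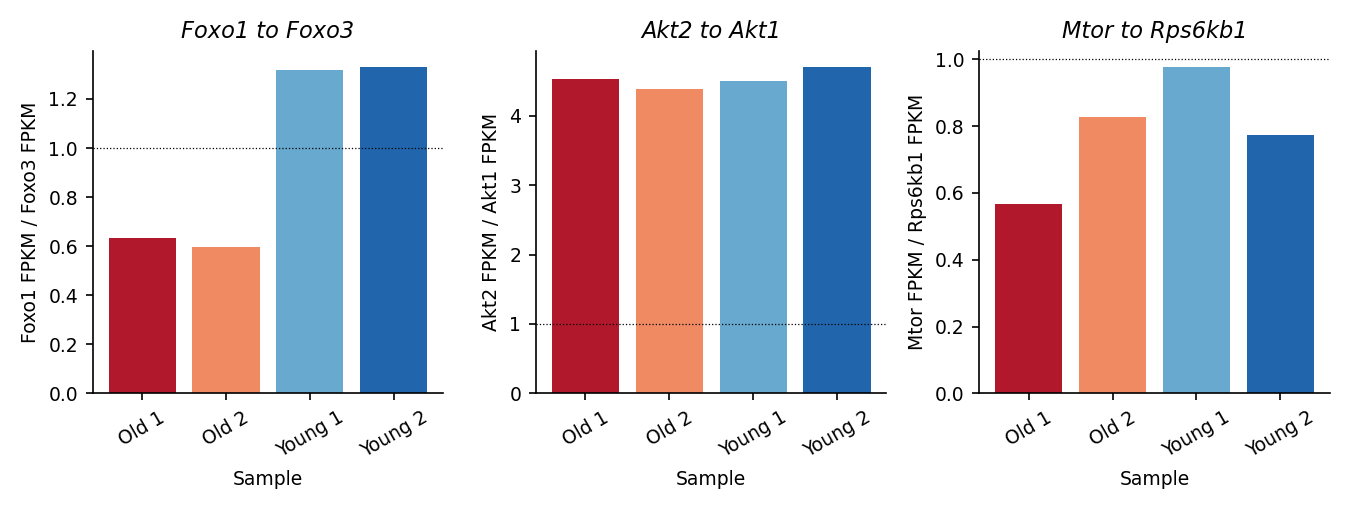
Ratios of deposited FPKM within each sample for Foxo1 to Foxo3, Akt2 to Akt1 and Mtor to Rps6kb1, with 1 bar per sample from 0 and a dotted line at a ratio of 1. Foxo1 to Foxo3 is 0.635 and 0.596 in the old and 1.32 and 1.33 in the young samples, whereas Akt2 to Akt1 lies between 4.39 and 4.70 in all 4.

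The order of levels was the same in all samples for Akt2, Akt1 and Irs1 at the top and for Igf1r and Igf1 at the bottom. Foxo1 took place 4 in both young samples and place 7 in both old samples. Rps6kb1 took place 4 in both old samples, and places 6 and 5 in Young 1 and Young 2. Mtor and Foxo3 were close neighbours in old muscle, with 8.08 and 7.70 FPKM in Old 1 and 4.15 and 3.96 FPKM in Old 2. Rps6kb1 and Foxo3 changed places between the young samples, so their order in young muscle did not hold beyond the spread. Foxo1 in the young samples was above 80.7% to 82.8% of all gene labels, and in the old samples above 67.4% to 71.2%.

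**Figure D3:**
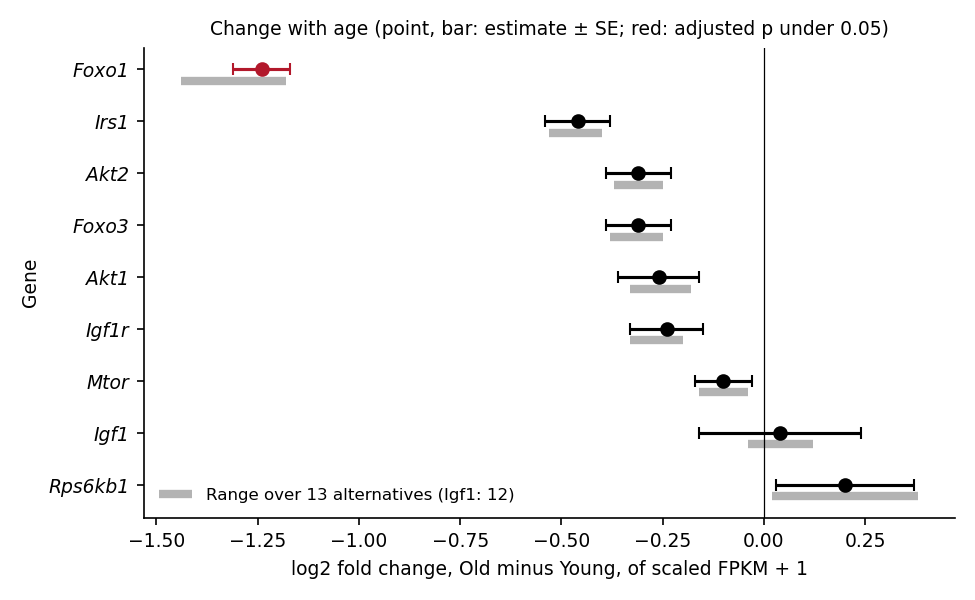
log2 fold change (Old minus Young, scaled FPKM + 1) of the 9 genes with its standard error, and grey bars for the range over the alternative settings. Foxo1 is at -1.24, 6 genes lie between -0.46 and -0.10, and the grey bar of Igf1 reaches both sides of 0.

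The rest of the pathway was described with 8 lists of 133 genes in all, of which 118 had a value in all samples and 105 besides the 9 genes were tested. The values of each sample end within chromosome 7 or 8, so a missing value says nothing about a gene's expression. Of these 105, 9 (8.57%) were higher and 11 (10.5%) were lower in old muscle, near the 5.61% and 7.94% of all genes tested, and their median log2 fold change was -0.02.
Among IGF ligands and binding proteins, 1 of 6 tested genes rose and 1 fell, with a list median of -0.05. An unadjusted p under 0.05 from limma was found for 2 of the 6, against 33.9% of all genes tested. Igfbp5, a binding protein made by muscle, rose from 22.4 and 41.3 FPKM in Young 1 and Young 2 to 152 and 70.2 FPKM in Old 1 and Old 2. This was a 3.41-fold higher scaled mean and a log2 fold change of 1.74 (SE 0.10, adjusted p = 0.021 from limma). Igfbp3, the main carrier of IGF-1 in blood, fell to a scaled mean 1.35-fold lower (log2 fold change -0.37, adjusted p = 0.035 from limma). Igf2 was not analysed here in Old 1 and Young 2, and was at 3.84 FPKM in Old 2 and 4.96 FPKM in Young 1.
Of receptors and adaptors, 8 of 11 had a value, with Insr, Irs2 and Gab1 not analysed here. None of the 8 passed the threshold with limma (3 at an unadjusted p under 0.05, against 33.9% of all genes tested), and their median was -0.08. Grb2, the adaptor to the Ras pathway, was the most abundant of them and had a log2 fold change of 0.18 (SE 0.10, adjusted p = 0.33 from limma).
Among PI3K, Akt and phosphatase genes, 14 were tested, 0 rose with limma and 7 had an unadjusted p under 0.05 in either direction (33.9% of all genes tested), with a list median of -0.24. Gsk3a, a kinase that Akt inhibits, was at a log2 fold change of 0.13 (SE 0.08, adjusted p = 0.36 from limma).

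Among mTOR complex subunits, 1 of 10 rose and 1 fell, while over all genes tested 5.61% rose and 7.94% fell. An unadjusted p under 0.05 from limma was found for 2 of the 10, against 33.9% of all genes tested. Rictor, the subunit that defines mTORC2, rose 1.62-fold, from scaled values of 3.18 and 3.28 in young to 5.22 and 5.27 in old muscle (adjusted p = 0.027 from limma). Mlst8, a subunit of both complexes, fell 1.44-fold, from 7.02 and 6.99 to 4.88 and 4.82 (adjusted p = 0.029 from limma). The other 8 tested subunit genes, Mtor and the mTORC1 subunit Rptor among them, did not pass, and the list median was -0.10.
Upstream of mTORC1, 1 of 26 genes rose and 3 fell, near the shares over all genes tested, with a list median of -0.10. An unadjusted p under 0.05 from limma was found for 10 of the 26, against 33.9% of all genes tested. Ddit4, which restrains mTORC1 under stress and glucocorticoids, had 44.6 and 92.5 FPKM in the young and 6.93 and 2.85 FPKM in the old samples. Its scaled mean was 14.3-fold lower in old muscle, the largest difference of all listed pathway genes (log2 fold change -3.57, SE 0.08, adjusted p = 0.017 from limma). Its relative Ddit4l rose 1.51-fold (log2 fold change 0.59, adjusted p = 0.042 from limma). Lamtor5 (Hbxip in the files) and Lamtor4 (0910001L09Rik in the files), parts of the lysosomal anchor of mTORC1, fell with log2 fold changes of -0.53 and -0.43 (adjusted p = 0.048 and 0.049 from limma).
Of the mTORC1 outputs, 2 of 14 rose and 0 fell (6 at an unadjusted p under 0.05, against 33.9% of all genes tested), and the list median was 0.16. Eif4b, a translation initiation factor, rose 1.85-fold from scaled values of 42.8 and 41.1 to 75.9 and 79.7 (adjusted p = 0.024 from limma). Rps6, the ribosomal protein that the S6 kinase phosphorylates, rose 1.81-fold (log2 fold change 0.85, SE 0.12, adjusted p = 0.041 from limma).

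Among FoxO factors and their regulators, 3 of 14 fell and 0 rose (7 at an unadjusted p under 0.05 in either direction, against 33.9% of all genes tested), and the list median was 0.01. Besides Foxo1 these were Foxo6, a further family member, and Sgk1, a kinase that phosphorylates FoxO factors as Akt does. Foxo6 had 7.31, 3.36, 5.87 and 12.9 FPKM in Old 1, Old 2, Young 1 and Young 2, a scaled mean 1.74-fold lower in old muscle (log2 fold change -0.69, SE 0.05, adjusted p = 0.023 from limma). Sgk1 had a scaled mean 1.55-fold lower (log2 fold change -0.63, SE 0.08, adjusted p = 0.037 from limma).
FoxO target genes did not move one way: of 25 tested, 4 rose, 3 fell and 18 did not pass, with a list median of 0.05. Over all genes tested, 5.61% rose and 7.94% fell. An unadjusted p under 0.05 from limma was found for 13 of the 25, against 33.9% of all genes tested. The ubiquitin ligase genes Fbxo32 and Trim63 and the glucose uptake inhibitor Txnip rose, with scaled means 5.04-fold, 2.05-fold and 2.36-fold higher in old muscle (adjusted p = 0.017, 0.024 and 0.023 from limma). The fourth, outside the naming rule and chosen after its values were seen, was the transcriptional coregulator gene Cited2 (ratio of scaled means 1.57, adjusted p = 0.037 from limma). Map1lc3a, an autophagosome coat gene, the mitochondrial antioxidant gene Sod2 and the glucocorticoid-responsive factor Klf15 fell, with scaled means 2.01-fold, 1.95-fold and 1.30-fold lower (adjusted p = 0.027, 0.024 and 0.042 from limma). Foxo1 mRNA was thus lower, and Fbxo32 and Trim63 mRNA higher, in the same old samples. Of the 21 listed genes called by limma, Foxo1 included, 1 (Ddit4) was called with FPKM as deposited, 0 without Old 2 and 0 without Young 1, where 2, 26 and 30 listed genes had an unadjusted p under 0.05. Of all genes tested, 0.75%, 15.5% and 19.6% had one under these settings.

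**Figure D4:**
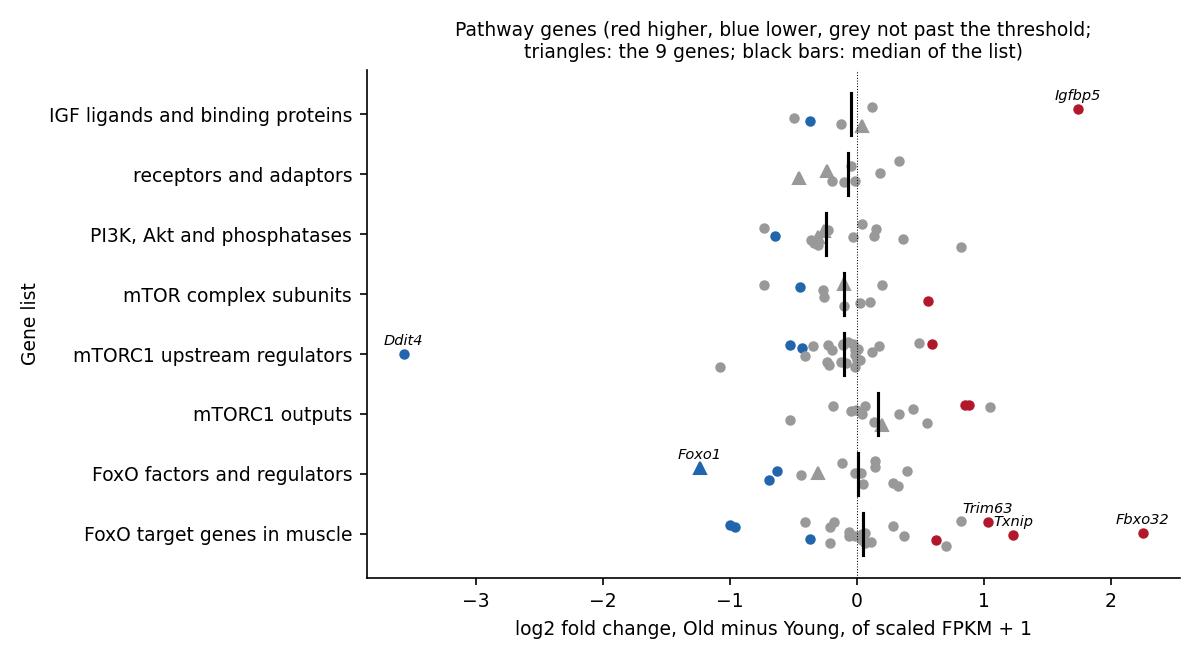
log2 fold change (Old minus Young, scaled FPKM + 1) of each tested gene in the 8 pathway lists, with 1 point per gene, triangles for the 9 genes and black bars for list medians. Most genes lie within 0.5 of 0, and the labelled genes are those that passed the test with a change beyond 1, from Ddit4 at -3.57 to Fbxo32 at 2.25.

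Some marker genes of other cells and fibers differed between the ages as well. Over all genes tested, 5.61% were called higher and 7.94% lower, and a count of 1 in a short list is too small to set against these shares. Of 6 slow fiber genes, 5 rose and 1 did not pass, and their summed scaled level was 619 to 800.2 in old against 40.6 to 50.8 in young samples. Of 6 fibroblast and mesenchymal progenitor genes, a known source of Igf1 and its binding proteins, the collagen genes Col1a1, Col1a2 and Col3a1 fell, and the summed level was 122 to 136 in old against 178 to 192 in young samples. The other 3 did not pass, with ratios of scaled means (old to young) of 1.18 for Pdgfra, 1.24 for Dcn and 0.876 for Lum. Of 7 macrophage and leukocyte genes 5 were tested and 1 fell, with sums of 14.4 to 18.5 against 23.3 to 28.0. Of 7 endothelial genes 6 were tested, 1 rose and 1 fell, with sums of 83.9 to 90.1 against 96.0 to 104. Of 5 Schwann cell genes 2 were tested and 1 fell, with sums of 18.1 to 18.4 against 24.9 to 25.3. The 5 adipocyte genes and the 1 tested satellite cell gene did not pass the threshold, and their sums overlapped between the ages. The adipocyte sum includes Cfd, which was at 0 in Old 2 and Young 1 and at scaled values of 81.3 in Old 1 and 100.1 in Young 2. Adipoq was higher in both old samples (ratio of scaled means 2.07, adjusted p = 0.089 from limma), while Plin1, Fabp4, Cidec and Cfd overlapped between the ages. No marker of these lists was at 0 in every sample. Their part in the differences of the 9 genes was not tested, and in whole muscle fewer cells of a type cannot be told apart from less mRNA per cell.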

How the data were processed

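The 4 mRNA-seq samples were grouped by age from their titles. Per the methods and the labels, the authors took trimmed reads through removal of PCR duplicates and alignment to mm10 (TopHat2 2.0.10, RefSeq genes, at most 2 mismatches), and deposited FPKM values per gene locus from Cufflinks run on each sample. Depth is unknown, so no counting error is given. The study's test, Cuffdiff 2.1.1, needs reads and was not run. The 9 genes, the gene lists and the settings were chosen with earlier results of these data known.

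The incomplete last line of each table was left out, rows of one symbol were summed, and 542 loci lacking a value in some sample were left out. In text order, values end within chromosome 7 in Old 1 and Young 2 and within chromosome 8 in Old 2 and Young 1. Genes later in that order have no value and are not among all genes tested. Locus starts count from 0 in the files and are printed from 1 (the start plus 1 equalled the RefSeq start for 7772 of 17007 genes, the start itself for 481). Median-of-ratios scaling, the kind Cuffdiff uses by default, was followed by limma 3.58.1 in R 4.3.3 on log2(scaled FPKM + 1) with a variance trend and Benjamini-Hochberg adjustment over 10266 genes. Standard errors are limma's moderated ones (3.40 degrees of freedom). The pseudocount of 1 understates changes of low genes. The fit was checked before use on simulated data with independent noise of equal size at all levels and a uniform factor per sample. In the measured values the factor and the spread varied with level, so the check does not cover that setting. Named genes are the 9 genes and, of each list, up to 3 called genes per direction with the largest change; where fewer than 2 others were called, the 2 most abundant were added. 3 list genes were matched by an older symbol. One gene that the naming rule gives is not reported here. Motifs were searched in the RefSeq promoter table. Python 3.11.15 with pandas 2.3.3 and matplotlib 3.10.9 made the tables and figures.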

Additional observations from a re-analysis of the deposited data

How the results depend on the processing

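Under 13 alternative settings the 30 genes named from the fit kept their direction in 388 of 389 values, the exception being Igf1, which was below 0 without Old 1 (-0.04 to 0.12 when each sample was left out). The filter, variance trend and block settings leave a gene's log2 fold change unchanged by construction. Most named genes besides the 9 were chosen because this fit called them, so the count is no independent support. The median log2 fold change of the 9 genes was -0.31 to -0.25 under the other settings and -0.33 to -0.20 when each sample was left out, which moved the median of all genes by up to -0.10 or 0.09. The number of genes called changed far more. With FPKM as deposited, 0 of the 9 genes were called, 18 of all genes were higher and 13 lower in old muscle, and 1 pathway list gene was called. With quantile normalization these were 0 of the 9 genes, 119 higher, 188 lower and 8 list genes. Requiring 1 FPKM in every sample gave 3 of the 9 genes (Foxo1, Irs1 and Igf1r), 1222 higher, 1302 lower and 40 list genes. Without the filter 114 were higher, 202 lower and 10 list genes were called, and without the variance trend 103, 181 and 9. With a pseudocount of 0.1 or the highest row per symbol, 2 of the 9 genes were called, Irs1 being added. Irs1 has 1 row, so the row choice left its own values unchanged and its adjusted p moved through other genes.

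With a block for the shared replicate number, 0 of the 9 genes, 24 higher, 21 lower and 2 list genes were called (adjusted p = 0.101 for Foxo1 from limma). The labels tie no samples together and deviations of same-numbered samples correlated at -0.903 over 10266 genes, so the pairing by number was not used. Old 1 and Young 2 correlated at 0.903, which is the same fact, since with 2 samples per age the deviations mirror each other. Old 1 and Young 2 also had fewer loci at 0 (5223 and 5335) than Old 2 and Young 1 (9558 and 9452). The spread within an age was thus largely shared across the ages, and the main fit counted it as spread between samples. Crossing the numbers in the block (Old 1 with Young 2), chosen after seeing the values, gave 6 of the 9 genes, 3242 higher, 3503 lower and 80 list genes. Leaving out each sample gave 0 to 1 of the 9 genes, 0 to 259 higher, 2 to 339 lower and 0 to 13 list genes, with the lone sample of an age assumed to vary like the others. Without Old 2 there were 4 higher and 2 lower, and without Young 1 there were 0 higher and 7 lower; without Old 1 there were 184 higher and 303 lower, and without Young 2 there were 259 and 339. At an unadjusted p under 0.05, limma gave 0 of the 9 genes as deposited (0.75% of all genes), 3 with quantile normalization (21.2%), 2 with the replicate block (15.0%), 2 without Old 2 (15.5%) and 2 without Young 1 (19.6%). The Foxo1 to Foxo3 log2 difference was -1.15 to -1.06 when each sample was left out. The cause of these moves was not tested, and the depth behind the lowest genes, Igf1 and Igf1r, is unknown.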

Other observations

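The mitophagy receptor gene Bnip3, a known FoxO target, had a value in 1 sample per age, at 73.8 FPKM in Old 2 and 61.4 FPKM in Young 1 (ratio 1.20 as deposited), which allows no test.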
